A study of Mus musculus with 24 samples.

Results

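The cerebellum and the olfactory bulb of Cdr1as-knockout C57BL/6 mice were compared across all genes, with 3 libraries from dissected knockout cerebellum and 3 from dissected knockout olfactory bulb. These 6 libraries were every one that the labels give both the knockout genotype and 1 of these 2 regions, out of 24 in a series that also sampled wild-type mice, cortex and hippocampus. All 6 carried the Cdr1as knockout, so the comparison sets 1 region against another on a shared genotype, and the 3 wild-type cerebellum and 3 wild-type olfactory bulb libraries served as a parallel comparison. RNA was extracted from the dissected tissue with TRIzol, selected for poly(A) and made into libraries with a TruSeq Stranded mRNA kit. Age, sex, the design of the allele and whether replicates came from separate animals are not given in the labels, so p-values measure the spread between these libraries. Unless wild type is named, "cerebellum" and "bulb" below mean the knockout libraries, every log2 value is cerebellum over bulb, and "n-fold lower" gives the bulb level over the cerebellum level.

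Both regions are packed with small neurons called granule cells, but the cells differ in kind. Cerebellar granule cells arise from the rhombic lip of the hindbrain, release glutamate and send parallel fibres to Purkinje cells, the GABAergic output neurons of the cerebellar cortex. Olfactory bulb granule cells have no axon, release GABA onto the mitral and tufted cells that carry odour signals to the cortex, and are renewed in adult mice by neuroblasts that migrate from the subventricular zone of the forebrain. Cdr1as is a circular RNA of neurons, and its circle has no poly(A) tail. Whether any of the circle was carried through the poly(A) selection of these libraries was not tested.

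The cerebellum libraries held 39541259, 27681714 and 34748209 gene counts and the bulb libraries 36690405, 40472007 and 33770965, within the 21068566 to 40472007 of the series. The feature named Cdr1asG had 20, 8 and 35 counts in knockout cerebellum and 23, 5 and 10 in knockout bulb. Scaled by library size and TMM factor to CPM, the usual per-library rate, these were 0.513, 0.295 and 1.05 CPM in knockout cerebellum and 0.623, 0.115 and 0.296 CPM in knockout bulb. Wild-type cerebellum had 18.9, 6.23 and 30.1 CPM and wild-type bulb 11.01, 2.32 and 8.72 CPM, above every knockout library of their region. Regional differences in Cdr1asG could not be called in the knockout (log2 0.88 ± 0.66 SE, edgeR adjusted p = 0.308). C230004F18Rik, a noncoding transcript known from the same locus, had 18.1, 10.5 and 30.6 CPM in cerebellum against 23.7, 8.22 and 13.2 CPM in the bulb, groups that overlapped; with the strand setting of the counting not given, its reads cannot be told from antisense reads of the locus. None of the 3 genes tested of those listed for the Cdr1as locus and network passed. In a principal component analysis of the 6 libraries the first component (88.2% of the variance) separated the regions, and the component after it (7.07%) set the library numbered 2 of each region apart from the others. Of 11897 genes with a mean of at least 5 CPM, 104 were at least 1 log2 unit lower in library 2 of both regions and 1 was higher. The median exon length of those 104 genes was 10945 bases, against 4847.5 over all 11897.

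Of 16371 genes tested, 4094 were higher in knockout cerebellum (25%) and 4401 were lower (26.9%) at an adjusted p under 0.05 in edgeR's quasi-likelihood test with Benjamini-Hochberg adjustment, so 51.9% were called in either direction. The median difference over all tested genes was 0.01 on the log2 scale. Changes of at least 4-fold were found for 659 genes higher in cerebellum (4.03%) and 1104 genes lower (6.74%). The 3 cerebellum libraries did not overlap the 3 bulb libraries in CPM for 10101 genes (61.7%). For 5712 genes (34.9%) the 95% interval of the difference lay inside 1.5-fold in either direction. Without the libraries numbered 2, 7928 genes were called, of which 7282 were among the 8495 called with them.

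**Figure D1:**
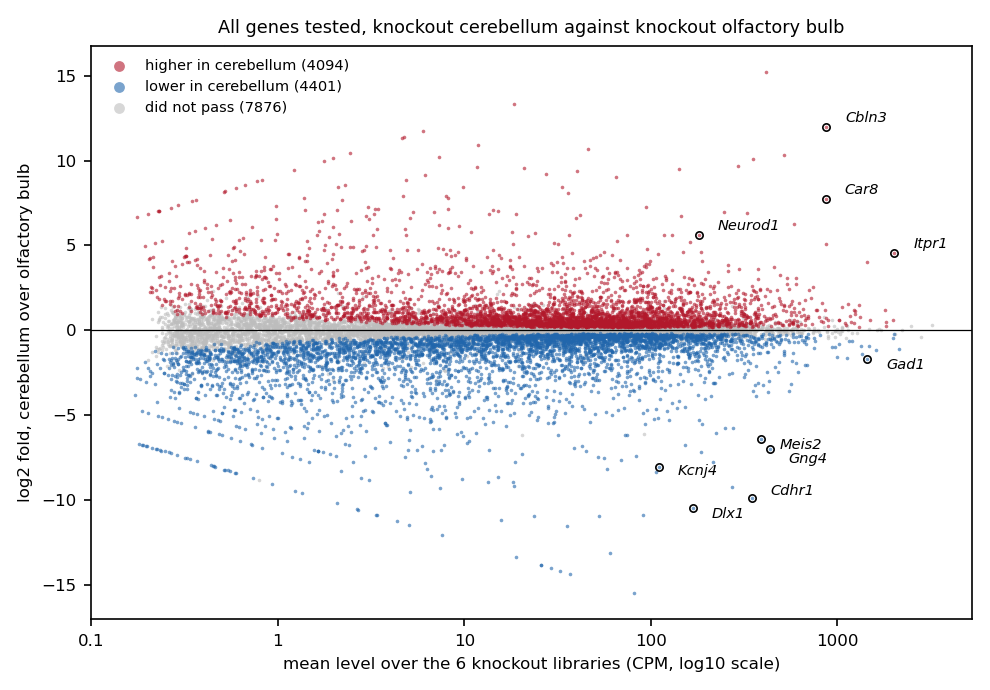
Each point is 1 of the 16371 genes tested, with the mean level over the 6 knockout libraries (CPM, log10 axis) on the horizontal axis and the fitted log2 fold of cerebellum over bulb on the vertical axis. Red points were higher in cerebellum (4094), blue points lower (4401) and grey points did not pass; the diagonal streaks are genes with few or no counts in 1 region, whose fitted fold depends on the prior count.

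The genes that stood farthest above the bulb in cerebellum included Gabra6, Cbln3, Fat2, Cnpy1, Mybpc3 and Hes3. Gabra6, the GABA-A receptor subunit typical of cerebellar granule cells, had 807, 787 and 882 CPM in cerebellum against 0.0271, 0.0231 and 0 CPM in the bulb. Its 82242 counts over the 3 cerebellum libraries stood against 2 over the 3 bulb libraries, a ratio of pooled CPM of 44735 (exact 95% counting interval 12384 to 369398, which covers counting error only). Cbln3, a cerebellin secreted by granule cells, had 1693, 1816 and 1723 CPM in cerebellum against 0.461, 0.416 and 0.415 CPM in the bulb (log2 11.97 ± 0.12 SE, edgeR adjusted p = 1.79e-08). Fat2, a giant cadherin of granule cell axons, had 1053, 895 and 1154 CPM in cerebellum against 1.25, 0.577 and 0.593 in the bulb. Cnpy1, a gene of fibroblast growth factor signalling first described at the zebrafish midbrain-hindbrain boundary, had 633, 589 and 533 CPM in cerebellum against 0.406, 0.808 and 0.948 in the bulb. Mybpc3, known as a myosin-binding protein of heart muscle, had 80.8, 109.5 and 86.1 CPM in cerebellum against 0.0271, 0.0231 and 0.119 in the bulb. The genes of this paragraph were picked from those whose groups did not overlap, so the lack of overlap is no result for them. Hes3, a repressor of the Notch-linked Hes family, had 42.2, 44.8 and 38.8 CPM in cerebellum against 0.0813, 0.0462 and 0.0296 in the bulb. Skor2, a transcriptional corepressor of Purkinje cells, and Tbata, named for thymus, brain and testis, had 0 counts in all 3 bulb libraries and were at least 429-fold and 1314-fold higher in cerebellum, with the floor set at 3 counts over the group. Sycp1, a meiotic synaptonemal complex protein, had 1 count in the bulb and a pooled ratio of 2569 (461 to 101493). Iltifb, which shares near-identical sequence with the interleukin-22 gene so that reads could be split between the copies, had a pooled ratio of 844 (289 to 4097).

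Itpr1, Adcy1 and Car8 were among the most abundant genes that were at least 4-fold higher in cerebellum. Itpr1, the inositol trisphosphate receptor that releases calcium in Purkinje cells, had 4149.5, 2911 and 4578 CPM in cerebellum against 222, 101 and 178 CPM in the bulb (log2 4.54 ± 0.36 SE, edgeR adjusted p = 8.93e-05). Adcy1, a calcium-stimulated adenylyl cyclase, had 2704, 2248 and 3209 CPM in cerebellum against 233, 93.3 and 168 in the bulb. Car8, a carbonic anhydrase-related protein that binds Itpr1, had 1745, 1579 and 1853 CPM in cerebellum against 9.02, 6.63 and 8.65 in the bulb. All 3 cerebellum libraries lay above all 3 bulb libraries for each of them, and library 2 was the lowest of its region for each of the 3. Rgs8, a regulator of G protein signalling, was 33.6-fold higher, Nrep 5.92-fold and the kinesin heavy chain Kif5c 5.16-fold.

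Of 26 cerebellar granule cell genes tested, 23 were higher in cerebellum, 0 were lower and 3 did not pass, with a median log2 of 2.86 against 0.01 over all genes. The shares over all genes tested, 25% higher and 26.9% lower, are the background for this list and every list below. Their summed level was 10017 to 10909 CPM in cerebellum against 2224 to 2343 CPM in the bulb. Neurod1, which drives granule cell differentiation, had 307, 371 and 393 CPM in cerebellum against 7.59, 8.38 and 6.07 CPM in the bulb (log2 5.60). Zic1, a zinc finger factor of the granule lineage, had 822, 974 and 1015 CPM in cerebellum against 139, 145 and 137 in the bulb, so the bulb held a clear level of it as well. En2, a homeobox factor of the midbrain and cerebellum, had 131, 138 and 123 CPM in cerebellum against 0.298, 0.254 and 0.178 in the bulb. For none of the 3 did the regions overlap. Etv1, listed for granule cells of both regions, was 3.41-fold higher in cerebellum, and Pax6, a factor of the rhombic lip and of dopaminergic bulb neurons, was 1.78-fold higher (118, 128 and 122 CPM in cerebellum against 66.2, 69.4 and 70.6 CPM in the bulb). The 3 that did not pass were Slc17a7, the vesicular glutamate transporter of cerebellar granule cells, Calb2 and Kcnk9. Slc17a7 had 524, 659 and 561 CPM in cerebellum against 687, 658 and 567 CPM in the bulb, overlapping values with a log2 of -0.13 (95% interval -0.40 to 0.14). Calb2, the calcium-binding protein calretinin, had 453, 472 and 464 CPM in cerebellum against 504, 539.7 and 518 in the bulb (log2 -0.17, 95% interval -0.33 to -0.01). These are bulk tissue libraries, in which fewer cells of a type and less RNA per cell cannot be told apart.

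Of 20 Purkinje cell genes, 19 were higher in cerebellum and 1 did not pass, with a median log2 of 4.45. Pcp2, a G protein modulator nearly restricted to Purkinje cells in the brain, had 286, 294 and 266 CPM in cerebellum against 0.325, 0.300 and 0.533 CPM in the bulb. Calb1, a calcium buffer, had 1121, 1115 and 1250.1 CPM in cerebellum against 21.8, 13.1 and 11.1 in the bulb. Pvalb, another calcium buffer shared by Purkinje cells and interneurons, had 554, 471 and 439 CPM in cerebellum against 4.17, 3.74 and 3.94 in the bulb. The regions were far apart for all 3. Lhx1, a LIM homeobox factor, was 111-fold higher, and Slc1a6, the glutamate transporter of Purkinje spines, 28.2-fold. Pcp4, a calmodulin regulator, differed least among those that passed (1.65-fold), and Foxp2 was the member that did not pass (log2 -0.59, edgeR adjusted p = 0.0883; 0.00340 with the replicate number as a block). The list of other cerebellar neurons split, with 6 of 12 higher and 5 lower. Slc6a5, the glycine transporter of Golgi cells and deep nuclei, had 48.3, 59.1 and 56.6 CPM in cerebellum against 0.0542, 0.0462 and 0.178 CPM in the bulb. Pax2, of developing cerebellar interneurons, had 0 counts in the bulb and was at least 330-fold higher. Kit, a receptor of basket and stellate cells, was 4.85-fold higher. Lower members included Grm2, the presynaptic glutamate receptor used to mark Golgi cells, with 22.5, 26.2 and 22.5 CPM in cerebellum against 132, 158 and 140.2 in the bulb, and Tbr1, a factor of deep nuclear neurons that mitral and cortical neurons also express, with 0.488, 0.517 and 0.809 CPM in cerebellum against 26.3, 19.0 and 16.9 in the bulb. Lhx9, Slc17a6 and Nrgn stood high in cerebellum library 1 alone (for Slc17a6, 61.8, 23.2 and 21.3 CPM). They are counted in their lists, where Slc17a6 and Lhx9 did not pass and the lower call of Nrgn was lost in 5 of the 6 fits that left out 1 library (edgeR adjusted p up to 0.154).

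**Figure D2:**
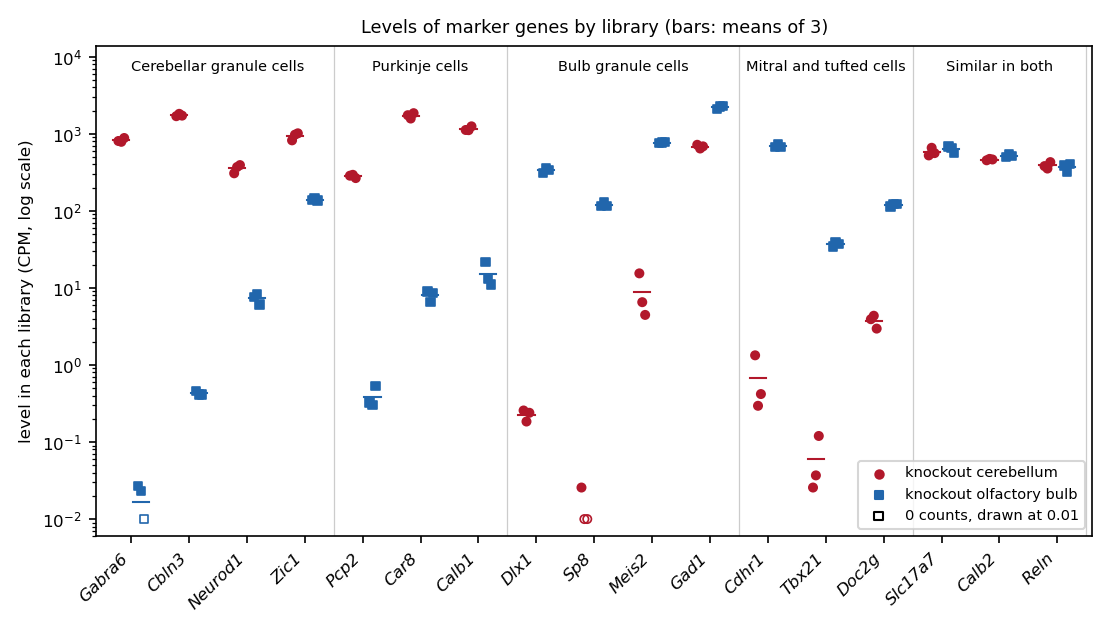
Level of 17 marker genes in each of the 6 knockout libraries (CPM, log axis), with cerebellum as red circles and bulb as blue squares, bars for the means of 3, and open symbols at 0.01 for libraries with 0 counts. Granule and Purkinje cell genes of the cerebellum lie above the bulb, granule and mitral cell genes of the bulb lie below it in cerebellum, and Slc17a7, Calb2 and Reln sit at similar levels in both.

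The genes farthest below the bulb in cerebellum included Dlx1, Dlx2, Dlx5, Scgn, Sp8 and Sp9. Dlx1, a distal-less homeobox factor of GABAergic interneurons, had 0.257, 0.184 and 0.240 CPM in cerebellum against 313, 362 and 336 CPM in the bulb (log2 -10.49 ± 0.14 SE, edgeR adjusted p = 5.49e-08). Dlx2 and Dlx5 of the same family and Scgn, the calcium sensor secretagogin, had 0 counts in all 3 cerebellum libraries. Their levels were at least 2036-fold, 1325-fold and 1788-fold lower in cerebellum, in that order. Sp8, a zinc finger factor that bulb interneurons need, had 1 count in cerebellum, and its pooled ratio of bulb over cerebellum was 12739 (2286 to 503213). Its relative Sp9 had 2 counts and a pooled ratio of 2462 (681 to 20336). Dlx6os1 and Dlx1as, transcripts antisense to Dlx genes, also had 0 counts in cerebellum, but the strand setting of the counting is not given in the sources used here, so their reads cannot be told from those of their partners. Akr1c18, a progesterone-metabolising hydroxysteroid dehydrogenase, was at least 355-fold lower.

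Of 21 bulb granule cell genes tested out of 22 listed, 19 were lower in cerebellum, Etv1 was higher and Calb2 did not pass, with a median log2 of -4.16. Meis2, a homeobox factor of bulb interneurons and their precursors, had 15.4, 6.53 and 4.46 CPM in cerebellum against 754, 771 and 783 CPM in the bulb. Pbx3, its binding partner, had 26.9, 27.4 and 30.2 CPM in cerebellum against 228, 261 and 262 in the bulb. Synpr, a synaptic vesicle protein, had 76.2, 63.5 and 69.8 CPM in cerebellum against 599, 685 and 665 in the bulb. In each of the 3 genes all bulb libraries stood above all cerebellum libraries. Tshz1, a zinc finger factor of granule cell migration, was 8.76-fold lower, and Penk, the precursor of enkephalin, 1.89-fold lower. Gng4, Camk2a, Ppm1e, Agap2 and Chd3 were among the most abundant genes at least 4-fold lower. Gng4, a G protein gamma subunit, had 8.08, 7.53 and 4.46 CPM in cerebellum against 796, 908 and 873 in the bulb and was 128-fold lower. Camk2a, a calcium/calmodulin-dependent kinase of excitatory synapses, was 9.16-fold lower, Ppm1e, a phosphatase that acts on such kinases, 12.7-fold, the GTPase-activating protein Agap2 4.14-fold and the chromatin remodeller Chd3 4.14-fold.

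Genes of the projection neurons and the periglomerular interneurons of the bulb were lower too. Of 16 mitral and tufted cell genes 12 were lower in cerebellum, Barhl2 was higher and 3 did not pass (median log2 -4.40). Cdhr1, a protocadherin-related protein of mitral cells, had 1.33, 0.295 and 0.419 CPM in cerebellum against 678, 737 and 679.9 CPM in the bulb. Tbx21, a T-box factor restricted to mitral and tufted cells in the brain, had 0.0257, 0.0369 and 0.120 CPM in cerebellum against 34.5, 38.7 and 37.1 in the bulb. Doc2g, a synaptic C-domain protein, had 3.93, 4.35 and 2.97 CPM in cerebellum against 114, 123 and 122 in the bulb. The lowest bulb library exceeded the highest cerebellum library for all 3. Reln, the secreted protein reelin, made both by mitral cells and by cerebellar granule cells, had 381, 354 and 429 CPM in cerebellum against 388, 321 and 406 in the bulb, an overlap with a log2 of 0.06 (95% interval -0.21 to 0.34). Among 12 periglomerular genes 7 were lower, 2 higher and 3 did not pass. Th, the rate-limiting enzyme of dopamine synthesis, had 9.13, 8.63 and 6.38 CPM in cerebellum against 201, 219 and 196 CPM in the bulb, and the dopamine transporter Slc6a3 had 0.103, 0 and 0 CPM in cerebellum against 12.8, 13.3 and 11.4 in the bulb. Calb1 and Pax6 were the 2 higher members, and both also stand on cerebellar lists.

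Genes of migrating neuroblasts and progenitors were lower for 16 of 18, with 2 that did not pass (median log2 -2.59). Dcx, a microtubule protein of migrating neuroblasts, had 10.2, 5.65 and 8.30 CPM in cerebellum against 386, 269.6 and 450.4 CPM in the bulb. Sox4, a factor of newborn neurons, had 6.52, 7.53 and 7.70 CPM in cerebellum against 116, 122 and 115 in the bulb. Igfbpl1, a growth factor binding protein of immature neurons, had 0.385, 0.0738 and 0.0899 CPM in cerebellum against 19.1, 21.4 and 21.0 in the bulb. The groups were apart for the 3 genes. Mki67, a marker of dividing cells, was low everywhere and still 4.23-fold lower (0.564, 0.553 and 0.419 CPM in cerebellum against 3.44, 1.62 and 1.48 CPM in the bulb). Egfr, a growth factor receptor of earlier progenitors, did not pass (edgeR adjusted p = 0.104). Of 10 olfactory sensory neuron genes 4 were lower and 3 higher, beside 26.9% lower and 25% higher over all genes tested. Omp, the olfactory marker protein, had 0.308, 0.664 and 0.839 CPM in cerebellum against 155, 126 and 52.0 CPM in the bulb, and S100a5, a calcium-binding protein of the same neurons, had 0 counts in cerebellum and was at least 2610-fold lower. Bulb library 3 held the least Omp and S100a5 of the 3 bulb libraries. The 3 higher members, Ebf1, Gng13 and Gnal, code for a transcription factor and G protein subunits that cerebellar or striatal neurons also use, and Ebf1 had 60.3, 65.6 and 64.2 CPM in cerebellum against 6.23, 6.47 and 6.07 in the bulb.

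Transcription factors that pattern the hindbrain and the forebrain in the embryo were still measured at different levels in the dissected regions. Of 16 hindbrain factors tested out of 23 listed, 12 were higher in cerebellum, 0 lower and 4 did not pass (median log2 3.94), and all 12 exceeded 4-fold. Of 20 forebrain factors tested out of 22, 17 were lower, Id4 was higher and 2 did not pass (median log2 -6.04; -8.27 without cerebellum library 1). En1, the partner of En2, had 1 count in the bulb and a pooled ratio of 469 (83.7 to 18562). Pax3, a paired-box factor, had 9.49, 9.11 and 9.35 CPM in cerebellum against 0, 0.0924 and 0 CPM in the bulb, and Irx3, an Iroquois factor, had 5.11, 5.06 and 4.04 CPM in cerebellum against 0.108, 0.254 and 0.0889 in the bulb. Bcl11b, a zinc finger factor of forebrain neurons, had 3.44, 1.29 and 1.11 CPM in cerebellum against 148, 137 and 143 in the bulb. Emx1, of the dorsal telencephalon, had 0.0257, 0.0738 and 0.0599 CPM in cerebellum against 3.77, 3.07 and 3.02 in the bulb. Each of these 4 separated the regions. Exceptions were Meis1 (log2 0.18) and Nr2f1 (-0.06), for which the groups overlapped. Within the Zic family of zinc finger factors Zic1, Zic2, Zic4 and Zic5 were 6.69-, 6.58-, 4.72- and 8.86-fold higher. The 6 Hox genes listed had at most 0.258 CPM in any library, the level of Hoxa2 in cerebellum library 2, and 7 of the 15 brainstem and deep nuclei genes could be tested, of which 2 were higher (Slc6a5 and the heavy neurofilament Nefh) and Spp1 was lower.

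The 250 bases before the start of 4 genes are shown because these genes mark the extremes of the comparison, with Gabra6 and Cbln3 at the cerebellar end and Dlx2 and Sp8 at the bulb end. They are RefSeq sequence of assembly GRCm38.p6 on the strand of the gene, 5′ to 3′, and the counts were made on mm9, so the coordinates belong to RefSeq. Capitals mark every match on either strand to TGGCA, a motif bound by nuclear factor I, or to GGGCGG, the GC box bound by the SP family. Gabra6 lies at chr11:42321073-42321322 (minus strand), Cbln3 at chr14:55884257-55884506 (minus), Dlx2 at chr2:71546755-71547004 (minus) and Sp8, at the most upstream of 3 starts, at chr12:118846079-118846328 (plus).
Gabra6: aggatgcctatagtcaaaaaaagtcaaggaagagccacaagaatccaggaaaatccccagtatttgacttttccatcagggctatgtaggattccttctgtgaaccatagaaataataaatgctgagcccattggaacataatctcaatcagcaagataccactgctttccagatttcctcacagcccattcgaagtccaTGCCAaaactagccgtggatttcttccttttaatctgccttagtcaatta
Cbln3: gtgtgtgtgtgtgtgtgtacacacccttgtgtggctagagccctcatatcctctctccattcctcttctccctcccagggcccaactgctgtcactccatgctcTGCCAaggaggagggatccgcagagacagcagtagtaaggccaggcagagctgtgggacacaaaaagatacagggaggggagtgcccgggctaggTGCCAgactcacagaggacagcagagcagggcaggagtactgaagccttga
Dlx2: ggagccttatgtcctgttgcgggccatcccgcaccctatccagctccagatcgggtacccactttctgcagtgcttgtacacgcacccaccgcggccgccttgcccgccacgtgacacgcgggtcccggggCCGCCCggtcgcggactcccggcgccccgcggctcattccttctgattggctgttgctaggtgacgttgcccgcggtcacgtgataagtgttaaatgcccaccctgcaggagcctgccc
Sp8: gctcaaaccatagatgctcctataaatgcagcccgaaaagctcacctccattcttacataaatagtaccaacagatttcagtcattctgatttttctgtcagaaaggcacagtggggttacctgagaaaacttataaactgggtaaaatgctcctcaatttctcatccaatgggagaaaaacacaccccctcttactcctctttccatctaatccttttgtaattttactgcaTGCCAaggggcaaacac
Gabra6 held 1 match to TGGCA, Cbln3 2, Sp8 1 and Dlx2 0, and Dlx2 held the only GGGCGG match of the 4. Over the windows of 27025 genes, 42.6% held TGGCA and 33.0% held GGGCGG, so such matches are common. Windows were found for 64.3% of the genes at least 4-fold higher and 67.4% of those at least 4-fold lower, which is under 80%, so a comparison of motif shares between the sets is void. The 4 nuclear factor I genes, named for the motif after their values were seen, were all higher in cerebellum, at a log2 of 1.89 for Nfia, 1.05 for Nfib, 1.69 for Nfic and 1.77 for Nfix. Over all genes tested 25% were higher, and a link between these genes and the motif was not tested. Nfix had 291, 371 and 340.4 CPM in cerebellum against 96.5, 106 and 92.5 CPM in the bulb.

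Glia differed between the regions by class. Of 15 oligodendrocyte genes 14 were higher in cerebellum, 0 lower and 1 (Aspa) did not pass, with a median log2 of 1.14. Mbp, the myelin basic protein, had 2406, 2705 and 2384 CPM in cerebellum against 1241, 982 and 1058 CPM in the bulb. Mog, a myelin surface protein, had 68.0, 70.2 and 63.6 CPM in cerebellum against 32.9, 28.1 and 28.0 in the bulb. No cerebellum library overlapped a bulb library for either gene. In contrast all 8 oligodendrocyte precursor genes were lower (median log2 -0.86), among them Pdgfra, the growth factor receptor that marks them, with 25.6, 25.1 and 25.4 CPM in cerebellum against 56.7, 36.7 and 44.2 in the bulb, and Gpr17, of precursors about to mature, with 30.8, 39.0 and 35.5 CPM in cerebellum against 72.4, 72.3 and 67.1 in the bulb. The calls of the least changed members, Olig2 and Cspg4, were lost in 4 and 5 of the 6 fits that left out 1 library (largest edgeR adjusted p 0.0916 and 0.162).

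All 12 microglial genes were lower in cerebellum, with a median log2 of -1.71. Cx3cr1, the fractalkine receptor, had 12.5, 13.4 and 14.4 CPM in cerebellum against 50.4, 44.8 and 45.2 CPM in the bulb. Tmem119, a microglial surface protein, had 5.36, 5.79 and 6.44 CPM in cerebellum against 26.4, 20.8 and 21.0 in the bulb. Csf1r, the receptor microglia need to survive, had 28.6, 40.0 and 38.6 CPM in cerebellum against 115, 107 and 98.2 in the bulb. The bulb libraries lay above the cerebellum libraries for every one of the 12. Over all genes tested the groups did not overlap for 61.7%. The summed level of the list was 171 to 192 CPM in cerebellum against 491 to 577 CPM in the bulb. Cortex and hippocampus knockout libraries, scaled over all knockout regions, averaged 55.9 and 49.6 CPM of Cx3cr1, close to the bulb.

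Of 12 genes listed for Bergmann glia, the astrocytes that ensheath Purkinje dendrites, 9 were higher and 3 lower. The lower call of Gria1 (log2 -0.22) was lost in all 6 fits that left out 1 library (edgeR adjusted p 0.0570 to 0.135). Gdf10, a growth factor of Bergmann glia, had 144, 184 and 183 CPM in cerebellum against 12.1, 12.3 and 12.4 CPM in the bulb, and Timp4, a metalloproteinase inhibitor, had 142, 149 and 146 CPM in cerebellum against 16.3, 16.4 and 17.9 in the bulb. Fabp7, a fatty acid binding protein that ensheathing glia also make, ran the other way with 68.1, 59.5 and 49.96 CPM in cerebellum against 455, 434 and 327 in the bulb. Of 15 general astrocyte genes 6 were higher, 5 lower and 4 did not pass. Slc1a3, a glial glutamate transporter, was 1.70-fold higher and Atp1b2, a sodium pump subunit, 2.54-fold. Glul, glutamine synthetase, was 2.23-fold lower and Gfap, a glial filament, 1.998-fold lower. The lower count of this list was 3 without cerebellum library 2, against 5 with all libraries. Among 10 olfactory ensheathing glia genes 7 were lower and 2 higher, with Frzb, a secreted Wnt antagonist, at 4.23, 4.06 and 3.38 CPM in cerebellum against 122, 129 and 80.2 in the bulb, and S100b, shared with astrocytes, 3.53-fold higher.

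Endothelial and erythrocyte genes mostly did not pass. Of 12 endothelial genes 11 did not pass and Cldn5 was lower, a call lost in 4 of 6 fits that left out 1 library (edgeR adjusted p up to 0.0822). For 9 of the 12 the 95% interval lay inside 1.5-fold. Pecam1, an endothelial adhesion molecule, had 22.8, 25.0 and 26.7 CPM in cerebellum against 26.4, 27.7 and 26.3 CPM in the bulb, and Ly6c1 had 32.8, 33.2 and 31.8 CPM in cerebellum against 32.6, 33.4 and 33.4 in the bulb. The 4 erythrocyte genes tested out of 6 listed did not pass. Among 12 meningeal fibroblast genes 3 were lower, near the 26.9% over all genes tested, and 9 did not pass. The lower count was 7 without bulb library 3, and 1 without cerebellum library 1, without bulb library 1 or without the libraries numbered 2. Collagen genes stood high in bulb library 2 alone (25.3, 158 and 18.6 CPM of Col1a1).

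Genes listed for the choroid plexus, the secretory epithelium of the ventricles, were mostly higher in cerebellum, and their summed level varied widely between its libraries. Ttr, transthyretin, its main secreted protein, had 329.5, 1193 and 595 CPM in cerebellum against 0.515, 0.831 and 0.504 CPM in the bulb. Otx2, a homeobox factor listed for the same epithelium, had 16.1, 19.0 and 16.2 CPM in cerebellum against 0.867, 0.878 and 0.622 in the bulb. It did not share the spread of Ttr between the cerebellum libraries. Of 12 choroid plexus genes 11 were higher, and the summed level of the list was 393 to 1366 CPM in cerebellum against 49.0 to 73.0 CPM in the bulb. Aqp1, a water channel of choroid plexus that ensheathing glia also express, was 11.3-fold lower (log2 -3.50, and -4.09 without cerebellum library 2). Ependymal genes were higher for 4 of 8 and lower for 1 (Tekt4), at low levels. Markers of neighbouring forebrain tissue ran in the other direction: of 12 genes of cortex and anterior olfactory nucleus neurons 10 were lower in cerebellum, and their summed level was 175 to 255 CPM in cerebellum against 1372 to 1606 CPM in the bulb. The defining member Tbr1 was at 0.488, 0.517 and 0.809 CPM in cerebellum and 26.3, 19.0 and 16.9 CPM in the bulb. The part of such tissue in the results was not tested. The 4 tested sex-linked genes, the Y-linked Uty, Ddx3y, Kdm5d and Eif2s3y, did not pass (log2 0.07 to 0.38). With Xist, which had at most 0.115 CPM, they summed to 179 to 225 CPM in cerebellum and 157 to 197 CPM in the bulb. Such levels mark male tissue, although the labels give no sex.

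**Figure D3:**
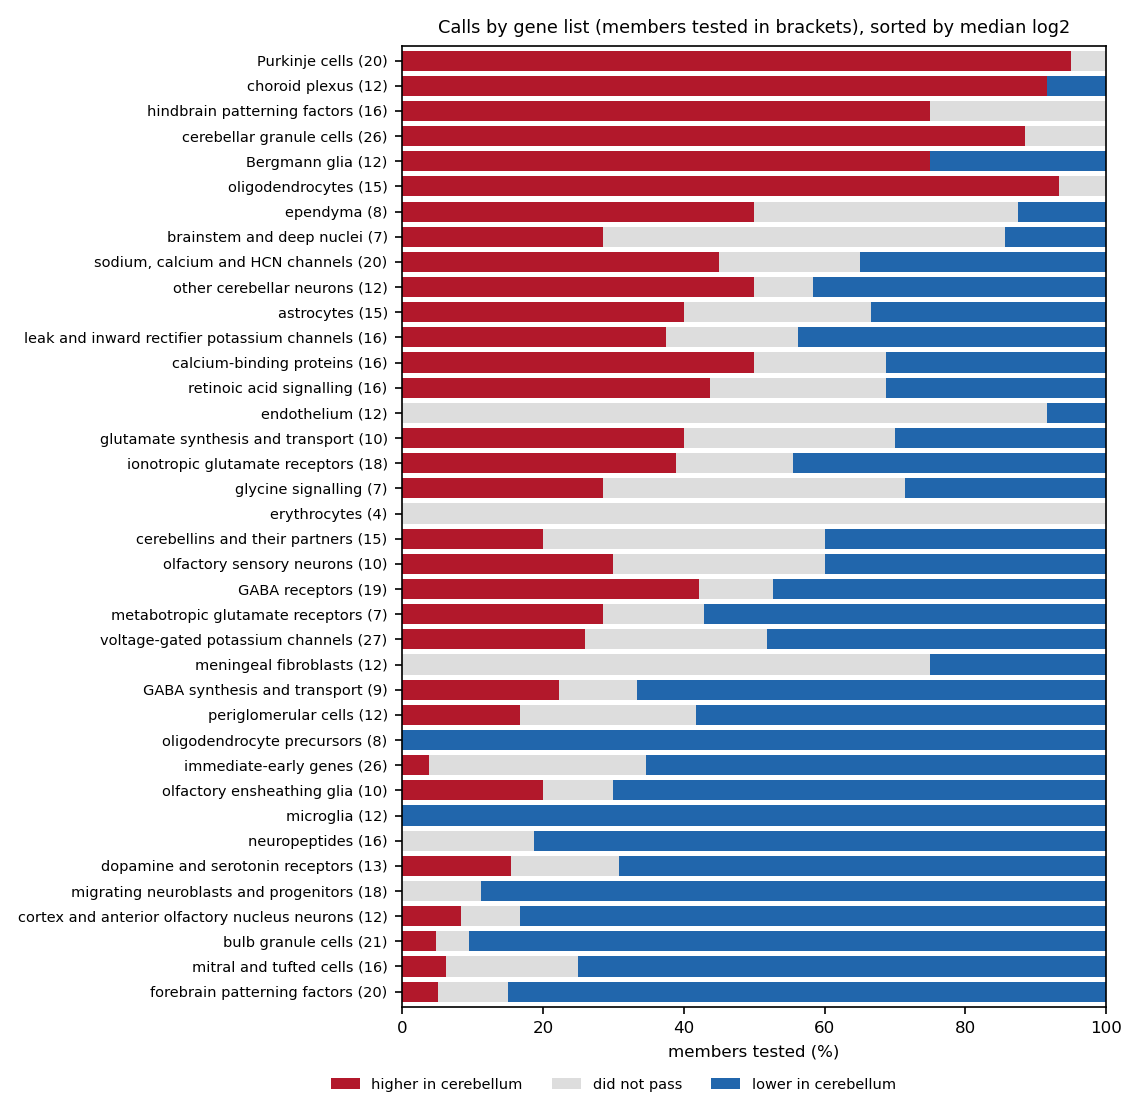
Share of the tested members of 38 gene lists (numbers tested in brackets) that were higher in cerebellum (red), did not pass (grey) or were lower (blue), ordered by the median log2 fold of the list. Purkinje cell, choroid plexus and hindbrain lists stand at the top, and forebrain factor, mitral cell and bulb granule cell lists at the bottom; over all genes tested 25% were higher and 26.9% lower.

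Genes that make and carry GABA were mostly lower in cerebellum, while those for glutamate went both ways. Of 9 genes of GABA synthesis and transport 6 were lower in cerebellum, 2 higher and 1 did not pass (median log2 -0.74). Gad1, a GABA-synthesising enzyme, had 720.2, 645 and 687 CPM in cerebellum against 2084, 2255 and 2285 CPM in the bulb (log2 -1.69 ± 0.08 SE, edgeR adjusted p = 3.68e-06). Gad2, its relative at nerve endings, was 2.64-fold lower, and Slc32a1, the vesicular GABA transporter, 1.67-fold lower (136, 149 and 136 CPM in cerebellum against 223, 245 and 234 in the bulb). Slc6a11, a glial GABA transporter, had 115, 78.3 and 63.3 CPM in cerebellum against 997, 1019 and 1035 in the bulb, the largest fitted fold of the list. Slc12a5, the chloride exporter of mature neurons, was 1.300-fold higher, and Slc12a2, the importer of immature neurons and glia, 1.61-fold higher. Of 10 glutamate genes tested 4 were higher, 3 lower and 3 did not pass (median log2 -0.12). The vesicular transporter Slc17a7, at similar levels in both regions as given above, was among the 3 that did not pass. Slc1a1, a neuronal glutamate transporter, was 3.61-fold lower, and Gls2, a glutaminase, 1.97-fold higher.

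Of 19 GABA receptor genes 8 were higher in cerebellum, 9 lower and 2 did not pass, and the order of the subunits differed between the regions. Per length, as CPM per kilobase of exon (FPKM), 5 alpha subunit genes ranked Gabra6 (332), Gabra4 (7.005), Gabra3 (5.06), Gabra2 (4.90) and Gabra5 (0.672) in cerebellum. In the bulb the order of these was Gabra5 (49.6), Gabra3 (42.1), Gabra4 (14.1), Gabra2 (7.97) and Gabra6 (0.00672). Gabra5, a subunit of receptors outside the synapse, had 4.003, 1.37 and 0.629 CPM in cerebellum against 137, 155 and 151 CPM in the bulb. Gabra3 had 24.2, 18.2 and 17.2 CPM in cerebellum against 169, 165 and 162 in the bulb. The regions did not overlap for either gene. Gabrd, the delta subunit that pairs with Gabra6 in tonic inhibition, was 5.14-fold higher (255, 268 and 253 CPM in cerebellum against 50.8, 50.6 and 49.8 in the bulb), while Gabrg3, a gamma subunit, was 7.67-fold lower. Gabbr2 of the GABA-B receptor was 5.63-fold higher and its partner Gabbr1 1.31-fold. The calls for Gabrb2 (higher) and Gabra2 (lower) were lost in 5 and 4 of the 6 fits that left out 1 library, with adjusted p up to 0.123 and 0.102 in edgeR. Of 7 glycine signalling genes 2 were higher and 2 lower, near the 25% higher and 26.9% lower over all genes tested. Besides Slc6a5, the receptor beta subunit Glrb was 1.46-fold higher. The alpha subunits Glra2 and Glra4 were 2.52-fold and 12.4-fold lower (for Glra4, log2 -3.63, and -4.81 without cerebellum library 1).

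Of 18 ionotropic glutamate receptor genes 7 were higher, 8 lower and 3 did not pass. Grin2c, the NMDA receptor subunit of mature cerebellar granule cells, had 451, 549 and 414 CPM in cerebellum against 89.4, 110.2 and 104 CPM in the bulb (log2 2.22 ± 0.13 SE, edgeR adjusted p = 1.10e-05). Gria4, an AMPA receptor subunit, had 644, 596 and 687 CPM in cerebellum against 232, 242 and 263 in the bulb. Each had all cerebellum libraries above all bulb libraries. Grik5, a kainate receptor subunit, was 2.73-fold lower and Grin2d, an NMDA receptor subunit of interneurons, 2.22-fold lower. Grin2b, the NMDA receptor subunit of immature synapses, had 4.18, 0.517 and 4.34 CPM in cerebellum against 80.0, 3.93 and 49.9 in the bulb, with library 2 lowest in both regions. Its call held in 1 of 6 fits that left out 1 library (edgeR adjusted p up to 0.175) and at log2 -3.93 with an adjusted p of 9.65e-05 without the libraries numbered 2. The lower count of this list was 4 or 5 in the fits without cerebellum library 1, 2 or 3 or bulb library 1 or 3. Of 7 metabotropic receptor genes tested, 2 were higher and 4 lower, beside 25% higher and 26.9% lower over all genes tested. Grm4, a presynaptic receptor of granule cells, had 514, 674 and 589.8 CPM in cerebellum against 151, 174 and 162 CPM in the bulb. Grm5, a receptor that couples to calcium release, had 21.8, 6.57 and 10.3 CPM in cerebellum against 157, 89.9 and 134 in the bulb, the opposite order. Neither Grm4 nor Grm5 overlapped between the regions. Grm8, another presynaptic receptor, was 3.92-fold lower.

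**Figure D4:**
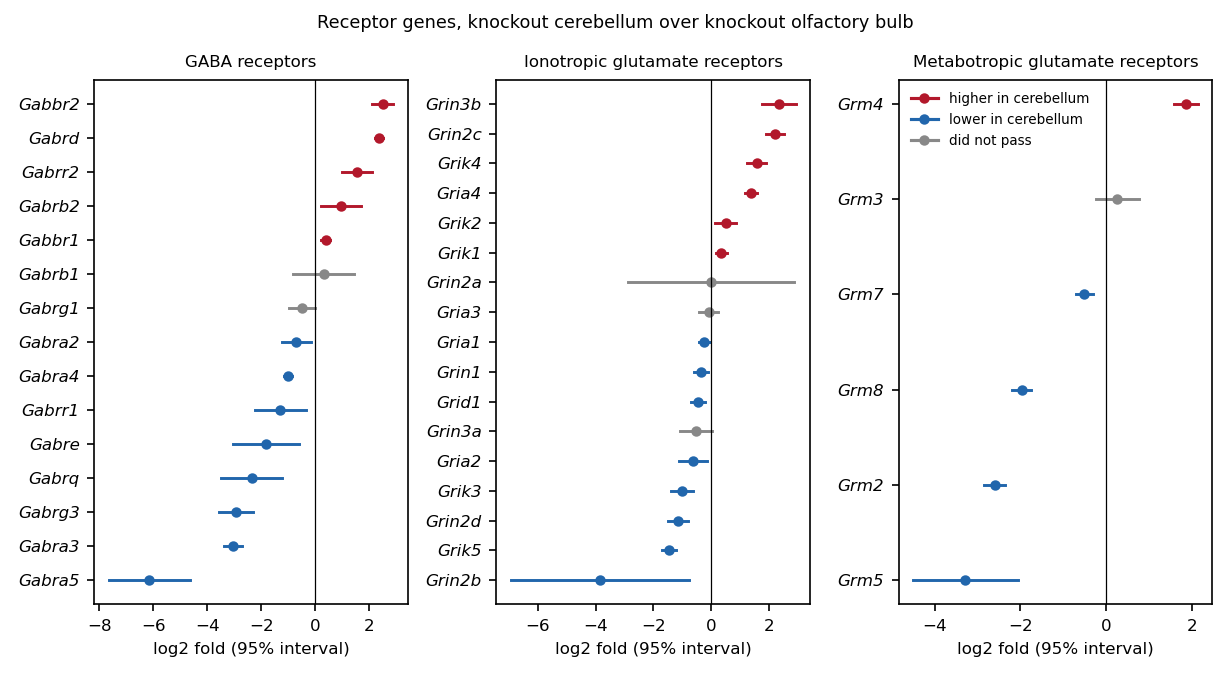
Fitted log2 fold of cerebellum over bulb with its 95% interval for GABA, ionotropic glutamate and metabotropic glutamate receptor genes, red where higher in cerebellum, blue where lower and grey where the test was not passed. Gabra6 (2 counts in the bulb) and a few genes not reported here are not drawn. The subunits of each receptor class spread to both sides of 0, with Gabbr2, Grin3b and Grm4 at the top and Gabra5, Grin2b and Grm5 at the bottom.

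Cerebellins are secreted proteins that bridge presynaptic neurexins and postsynaptic delta receptors. Cbln1, the bridge from parallel fibres to Purkinje cells, had 128, 150.3 and 134 CPM in cerebellum against 10.4, 11.8 and 10.5 CPM in the bulb, and Cbln3, its partner, is described above. Cbln4 ran the other way with 2.41, 1.48 and 1.29 CPM in cerebellum against 34.7, 35.7 and 30.6 in the bulb. Of the 15 genes of this list 3 were higher, 6 lower and 6 did not pass, beside 25% higher and 26.9% lower over all genes tested. The higher count was 5 without bulb library 1. The delta receptor gene Grid1 was 1.36-fold lower. The neurexins Nrxn2 and Nrxn3 did not pass (log2 -0.26 and -0.37), and the neuroligin Nlgn2 was nearly level (296, 358 and 315 CPM in cerebellum against 299, 356 and 309 in the bulb).

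Ion channel families held genes called in both directions. Of 27 voltage-gated potassium channel genes 7 were higher, 13 lower and 7 did not pass (median log2 -0.66), beside 25% higher and 26.9% lower over all genes tested, so the higher share was near the background. Kcnc1, a channel of fast-spiking neurons, was 2.72-fold higher, and Kcna1, an axonal channel, was 4.395-fold higher. Kcna1 had 504, 477 and 578 CPM in cerebellum against 138, 92.3 and 124 CPM in the bulb. Kcnh3, an ether-a-go-go channel of the forebrain, had 6.26, 7.01 and 5.81 CPM in cerebellum against 233, 249.9 and 251 in the bulb, and Kcna4, an inactivating channel, had 4.34, 3.91 and 3.56 CPM in cerebellum against 65.9, 62.7 and 70.8 in the bulb. In all 3 the regions stood apart. Kcnq5, an M-current channel, was 18.9-fold lower. Kcna2 did not pass: it had 134, 7.08 and 123 CPM in cerebellum against 65.4, 0.855 and 49.1 in the bulb, with library 2 lowest in each region, and its log2 of 1.20 had an edgeR adjusted p of 0.538, against 0.0227 with the replicate block and 5.19e-04 without the libraries numbered 2.

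Among 16 leak and inward rectifier potassium channel genes 6 were higher and 7 lower, beside 25% higher and 26.9% lower over all genes tested. Kcnj4, an inward rectifier of forebrain neurons, had 1.33, 0.517 and 0.509 CPM in cerebellum against 223, 226 and 212 CPM in the bulb, while Kcnj12 of the same family was 5.86-fold higher and Kcnk1, a leak channel, 3.40-fold higher. Of 20 sodium, calcium and HCN channel genes 9 were higher and 7 lower. Scn4b, the subunit behind resurgent sodium current in Purkinje cells, had 150.3, 144 and 142 CPM in cerebellum against 3.22, 2.98 and 2.81 CPM in the bulb, and Scn3b, another beta subunit, had 6.83, 6.97 and 3.71 CPM in cerebellum against 214, 211 and 214 in the bulb. The 2 subunits differed in opposite directions with no overlap. Cacna1a, the P/Q-type calcium channel, was 4.08-fold higher and Cacna1h, a T-type channel, 25.7-fold lower. Hcn4, a pacemaker channel, was 7.72-fold lower.

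Neuropeptide genes were lower in cerebellum for 13 of 16 tested out of 19 listed, with 0 higher and 3 that did not pass (median log2 -2.29). Trh, thyrotropin-releasing hormone, had 0, 0.0369 and 0.0300 CPM in cerebellum against 69.5, 77.9 and 65.3 CPM in the bulb; its 2 counts in cerebellum gave a pooled ratio of bulb over cerebellum of 3742 (1035 to 30901). Nmb, neuromedin B of tufted cells, had 2.82, 2.88 and 2.55 CPM in cerebellum against 37.4, 44.7 and 40.6 in the bulb. Crh, corticotropin-releasing hormone, had 0.0770, 0.184 and 0.0599 CPM in cerebellum against 9.84, 12.1 and 13.1 in the bulb. Every bulb library was above every cerebellum library for the 3. Npy, neuropeptide Y, was 6.82-fold lower. Sst, Tac1 and Pomc did not pass. Dopamine and serotonin receptor genes were lower for 9 of 13 tested and higher for 2. Htr3a, a serotonin-gated channel, had 0.0770, 0.0738 and 0.0899 CPM in cerebellum against 10.6, 12.6 and 9.98 CPM in the bulb, and Drd1, a dopamine receptor, had 0.462, 0.221 and 0.300 CPM in cerebellum against 3.36, 3.53 and 4.09 in the bulb. Htr1b, a presynaptic serotonin receptor, was the other way (8.01, 7.71 and 9.32 CPM in cerebellum against 1.25, 0.554 and 0.533 in the bulb).

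Calcium-binding protein genes split, with 8 of 16 higher, 5 lower and 3 that did not pass. Hpcal1, a visinin-like sensor of Purkinje cells, had 279, 285 and 293 CPM in cerebellum against 15.99, 9.79 and 8.59 CPM in the bulb, and Hpcal4, its relative, had 54.1, 45.6 and 41.3 CPM in cerebellum against 709.9, 634 and 718 in the bulb, the opposite order without overlap. Necab2, a neuronal calcium sensor, was 21.8-fold lower and Vsnl1, visinin-like protein, 3.22-fold higher. Retinoic acid genes were 7 higher, 5 lower and 4 not passed of 16, beside 25% higher and 26.9% lower over all genes tested. Aldh1a1, which makes retinoic acid, had 215, 213 and 219 CPM in cerebellum against 45.01, 48.6 and 31.9 CPM in the bulb, and Cyp26b1, which degrades it, had 28.2, 32.8 and 30.6 CPM in cerebellum against 3.77, 3.88 and 2.19 in the bulb, both above the bulb in all libraries. Crabp1, a retinoic acid binding protein, had 1 count in cerebellum and a pooled ratio of bulb over cerebellum of 586 (105 to 23163), and the receptor Rxrg was 14.8-fold lower.

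Immediate-early genes, which neurons transcribe within minutes of activity, were lower in cerebellum for 17 of 26, with Dusp1 higher and 8 that did not pass (median log2 -1.43). Egr1, a zinc finger factor, had 43.0, 48.4 and 44.99 CPM in cerebellum against 272, 493 and 398 CPM in the bulb. Arc, a regulator of AMPA receptor trafficking, had 22.8, 26.2 and 21.6 CPM in cerebellum against 222, 413 and 363 in the bulb. Fosb, an AP-1 subunit, had 2.95, 5.57 and 6.20 CPM in cerebellum against 86.6, 142 and 157 in the bulb. The highest cerebellum library stayed below the lowest bulb library for these 3, and bulb library 1 was the lowest of its region for each. Junb was 8.90-fold lower. Egr3 was 116-fold lower (log2 -6.85, and -7.89 without cerebellum library 1). Fos did not pass, with 50.4, 118 and 102 CPM in cerebellum against 83.7, 173 and 139 CPM in the bulb; its log2 was -0.55 (edgeR adjusted p = 0.289; 0.00114 with the replicate block). Dusp1, a phosphatase that ends MAP kinase signalling, had 58.3, 93.4 and 80.1 CPM in cerebellum against 32.6, 50.1 and 43.9 in the bulb.

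Some of the most abundant genes lay close to equality. Sparcl1, a secreted glycoprotein of astrocytes, had 2231, 2144 and 2308 CPM in cerebellum against 2220.3, 2202 and 2195 CPM in the bulb (log2 0.01, 95% interval -0.15 to 0.18). Psap, the lysosomal precursor prosaposin, had 1603, 1873 and 1737 CPM in cerebellum against 1733, 1714 and 1612 in the bulb. Hspa8, a constitutive chaperone, had 1684, 1569 and 1888 CPM in cerebellum against 1597, 1559 and 1736 in the bulb. The groups overlapped in these 3. Ckb, brain creatine kinase, was called lower at a small difference (log2 -0.25), but the call was lost in 5 of the 6 fits that left out 1 library (adjusted p up to 0.136 in edgeR).

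Set among all 4 knockout regions, many of these genes stood apart in 1 region. Of the 659 genes at least 4-fold higher in cerebellum, 543 (82.4%) were above every cortex, hippocampus and bulb knockout library in every cerebellum library. Of the 1104 at least 4-fold lower, 584 (52.9%) had every bulb library above every other knockout library. For 456 of the 659 (69.2%) the cortex and hippocampus means were both nearer the bulb. For 527 of the 1104 (47.7%) they were both nearer the bulb, and for 384 (34.8%) both nearer the cerebellum. Bcl11b averaged 117 CPM in knockout cortex and 174 CPM in knockout hippocampus, beside 148, 137 and 143 CPM in the bulb libraries. Scgn, by contrast, averaged 0.295 CPM in knockout cortex and 1.21 CPM in knockout hippocampus, beside 45.01, 52.1 and 56.9 CPM in the bulb. The 2 counts of members above every other library come from the same libraries that chose the genes, so they are descriptions and carry no test.

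The same regional comparison in wild-type libraries called 3384 genes higher in cerebellum (21.1%) and 4179 lower (26%) of 16062 tested, 47.1% in either direction. At least 4-fold differences were found for 614 genes higher (3.82%) and 1058 lower (6.59%) there. Of 15956 genes tested in both genotypes, 8335 were called in knockout and 7519 in wild type, and 6840 were called in both with the same sign, which is 82.1% of the knockout calls and 91.0% of the wild-type calls. The number called with opposite signs was 0. All 1669 of these genes that differed at least 4-fold in knockout had the same sign in wild type, and 1635 were also called there. The knockout and wild-type comparisons share no library, and across genes the log2 folds had a Pearson r of 0.975 (a description, since genes are not independent), with a median absolute difference of 0.104.

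The difference between the knockout and the wild-type regional fold was tested as an interaction over 16883 genes. edgeR called 0 genes at an adjusted p under 0.05 (0%; smallest adjusted p 0.347, and 412 genes at an unadjusted p under 0.05), limma-voom called 0 and DESeq2 called 7. For 8522 genes (50.5%) the 95% interval of the interaction lay inside 1.5-fold. The 7 in DESeq2 were Gadd45b, Atf3, Bhlhe40, Eomes, Arid5a, Lonrf1 and Kcnk12. Atf3, a stress-induced factor, had 1.39, 1.29 and 1.44 CPM in knockout cerebellum and 20.2, 22.1 and 30.3 CPM in knockout bulb, beside 1.13, 0.760 and 1.301 CPM in wild-type cerebellum and 3.23, 2.60 and 5.38 CPM in wild-type bulb. Its 3 knockout bulb libraries were the highest of the 12, and the regional log2 was -4.13 in knockout and -1.80 in wild type. Eomes, a T-box factor of mitral cells and of cerebellar unipolar brush cells, had 58.8, 73.8 and 91.7 CPM in knockout cerebellum and 131, 159 and 147 CPM in knockout bulb, beside 31.0, 22.2 and 32.3 CPM in wild-type cerebellum and 176, 169 and 146 CPM in wild-type bulb. Its 3 knockout cerebellum libraries lay above the 3 wild-type ones, and the regional log2 was -0.96 in knockout and -2.52 in wild type. Gadd45b, a stress and activity gene, had a regional log2 of -1.11 in knockout and 0.05 in wild type. Kcnk12, a member of the leak potassium channel family, stood at 0.48 in knockout and 1.08 in wild type, and Lonrf1, a ring finger protein, at -1.13 in knockout and -0.31 in wild type. Neither Atf3, Eomes nor Gadd45b passed the interaction in edgeR (adjusted p 0.347 for Atf3, 0.347 for Eomes and 0.621 for Gadd45b). For immediate-early genes the knockout and wild-type folds stood at -3.09 and -1.76 for Egr1 and at -3.82 and -2.24 for Arc, and neither passed the interaction in edgeR (unadjusted p 0.0189 for Egr1 and 0.00801 for Arc).

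**Figure D5:**
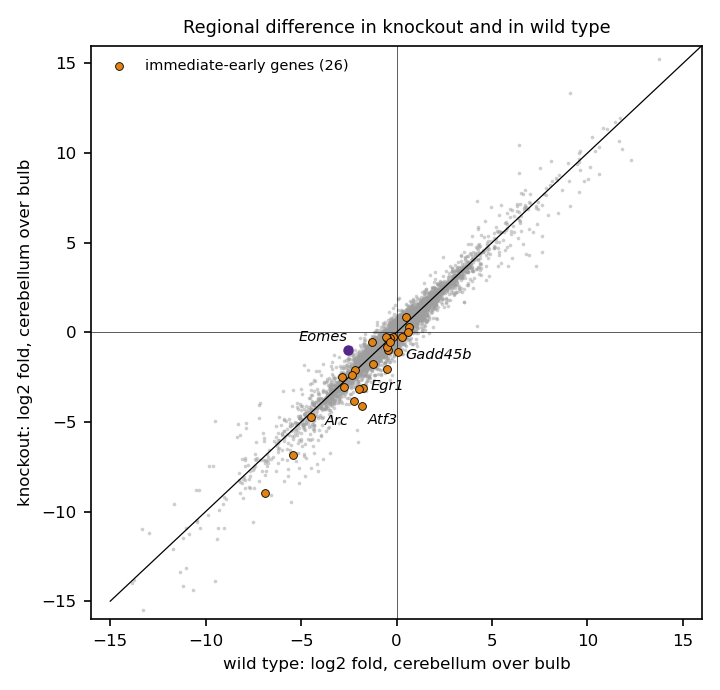
Fitted log2 fold of cerebellum over bulb in knockout (vertical axis) and in wild type (horizontal axis) for each of the 15956 genes tested in both; the diagonal marks equal folds, orange circles are the 26 immediate-early genes and the purple circle is Eomes. Points follow the diagonal (r = 0.975 across genes), and Atf3 and Arc lie below it while Eomes lies above it.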

How the data were processed

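Poly(A) RNA of 24 libraries (8 groups of 3, by region and genotype as labelled) was sequenced. Per the submitters' processing notes, the tools were bcl2fastq 2.17.1.14, STAR 2.5.1b and HTSeq 0.6.1p1 with genome build mm9; the strand setting of the counting is not given in the sources used here. The authors deposited raw counts per gene, 1 table per library, with 37626 lines of which 5 are summary lines and 37621 are features (32897 with a symbol). The summary lines were left out of library sizes and tests; in the cerebellum and bulb knockout libraries reads in no feature were 13.5 to 16.6% of all counts in the table, ambiguous reads 0.581 to 0.745% and reads aligned to several places 11.5 to 12.9%.

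From these counts, CPM (with TMM factors) and FPKM (CPM per kilobase of summed exon length, from a GENCODE annotation of the later mouse build GRCm38) were computed. TMM factors for CPM were computed within the 6 libraries of each genotype, so knockout and wild-type CPM were scaled separately. Cortex and hippocampus CPM, and the comparison of the knockout regions, used factors over the 12 knockout libraries. The test was edgeR 4.0.16 (R 4.3.3): filterByExpr, TMM factors and the robust quasi-likelihood F test, fitted to the 6 libraries of a comparison (12 for the interaction), with Benjamini-Hochberg adjustment over all genes tested and a threshold of 0.05. In simulated data made for the knockout comparison it called 81% of 100 genes changed 2-fold, 95% of 100 changed 4-fold and 0.0439% of 15952 unchanged genes. Few genes were changed there, while 51.9% were called in the real comparison, so these rates may not carry over to it. Alternatives were DESeq2 1.42.0, limma-voom (limma 3.58.1), other scalings, no filter, a replicate block, all 24 libraries and leaving out libraries. Leaving out both libraries numbered 2 was added after the data were seen. Replicate numbers come from the labels. The deviations of equal-numbered cerebellum and bulb libraries from their group means correlated at r = 0.300, 0.680 and 0.231 across genes, all over 0.1, the rule used here for pairing. Of the unequal-numbered pairs 2 were also over 0.1 (cerebellum 3 with bulb 1 at 0.421 and cerebellum 1 with bulb 3 at 0.196), and 4 were negative. Library 2 stood apart in both regions, so these correlations cannot show that equal numbers pair the libraries. The main fit has no block. Of 502 named or listed genes, 27 that had not passed were called with the block, and 1 lost its call. The blocked value is given for Foxp2, Kcna2 and Fos only.

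The 40 gene lists (501 symbols, 496 matched, 2 of them by a synonym) and the comparison itself were chosen with earlier results of these data known. Genes were named by rule: those with the largest folds in each direction (mean of at least 10 CPM in the higher region, no overlap), the most abundant with at least 4-fold differences, list members in order of p, the genes with the smallest interaction p, and abundant genes whose 95% interval lay inside 1.5-fold. Folds against a group at 0 counts are lower bounds from a floor of 3 counts over the group. Placing such genes at their bound left every list median as fitted. Libraries of a group differed by more than sampling noise (chi-square over its degrees of freedom, 14.4 to 56.1 within the knockout cerebellum and bulb groups), so none was counted as a copy of another. Counting intervals cover counting error only. Values of some genes are not reported here.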

Additional observations from a re-analysis of the deposited data

How the results depend on the processing

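No gene called in the knockout comparison was called with the opposite sign under any alternative run. The knockout comparison called 8495 genes, and between 8205 (library totals in place of TMM) and 8699 (DESeq2) under the other scalings, tests and filters; library totals moved the median of all genes to -0.06 on the log2 scale and the share of calls that were higher to 41.4%, against 48.2%. With the replicate number as a block, 9196 genes were called, of which 8321 were among the 8495. Foxp2, Kcna2 and Fos were among the listed genes that then passed. Fits without 1 library gave 3607 to 4042 genes higher, 3764 to 4161 lower, 675 to 715 at least 4-fold higher, 1110 to 1218 at least 4-fold lower and 4979 to 5430 with the 95% interval inside 1.5-fold. In wild type they gave 2810 to 3529 higher and 3221 to 3834 lower. The interaction was at 0 genes in every edgeR and limma-voom fit and at 7 in DESeq2; the cause of that difference was not tested. The median log2 of the forebrain factors was -8.27 without cerebellum library 1, against -6.04; the cause was not tested. Precision at low levels is limited by depth: a gene with 0 counts in a region was below detection there, not shown to be absent.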
